A study of Mus musculus with 6 samples.

Results

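The miR-221 and miR-222 cluster gives 4 mature miRNAs, 2 from each hairpin: mmu-miR-221-3p, mmu-miR-221-5p, mmu-miR-222-3p and mmu-miR-222-5p. They were chosen by name, as all rows of the hairpins miR-221 and miR-222 on either arm, and make up 4 of the 778 mature miRNAs in the table. The libraries came from primary mesangial cells of the mouse, the contractile cells that hold the capillaries of the kidney glomerulus together. There were 3 Control libraries and 3 TGF-b1 libraries, the latter from cells exposed for 72 h to 10 ng/ml of TGF-β1 (transforming growth factor β1), which is a main driver of scar formation. Cells of both groups grew in medium with 25.5 mM glucose and 20% foetal serum and were between passages 3 and 6, so the TGF-β1 response was measured in high glucose and high serum only. The samples were taken in triplicate, and the study calls its replicates biological when describing other assays, but the sources used here do not say that these miRNA libraries came from separate cultures, so p-values measure the spread between libraries, which may be technical. The comparison asked whether TGF-β1 changed the level of each arm of the cluster.

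A hairpin is cut into a pair of arms, named 5p and 3p, and one of them is usually kept as the guide that directs the silencing complex to messenger RNAs, while the other, the passenger, is mostly discarded. MiR-221 and miR-222 are made from neighbouring hairpins of one primary transcript, and their 3p arms are the guides. They are known for promoting proliferation, above all by silencing the cell cycle inhibitor p27 (gene Cdkn1b), and in vascular smooth muscle, a relative of the mesangial cell, they are linked to growth and to loss of the contractile state.

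On the NCBIM37 mouse genome, known as mm9, to which the study mapped its messenger RNA reads, Mir221 lies on chromosome X from 18723420 to 18723514 and Mir222 from 18724019 to 18724097, both on the minus strand. Between them are 504 bases, and the pair spans 678 bp. In the GENCODE vM1 annotation 0 other genes overlap that span, so the hairpins are intergenic, 684.9 kb from 4930578C19Rik and 332.4 kb from BC049702, the nearest protein-coding genes on either side. Mature sequences from RefSeq (build GRCm38.p6) matched 3 of the 4 members by name. They are shown because the guides share their seed, bases 2 to 8, which sets most of the target choice and is printed in capitals.
mmu-miR-221-3p: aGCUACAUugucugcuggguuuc
mmu-miR-222-3p: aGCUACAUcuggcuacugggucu
mmu-miR-221-5p: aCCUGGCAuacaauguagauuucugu

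The guides were identical over their first 8 bases and at 11 of 23 positions when aligned from base 1. After the first 8 bases, their longest common run was 6 bases long. Reads that cover more than these leading bases can therefore tell them apart, and no member was among the rows of the table that held the same values as another row. In the same RefSeq table, mmu-miR-1928 was the other mature mouse miRNA with the guides' seed, and it has no row among those analysed here. The passenger miR-221-5p shared its seed with no other entry. The hairpins, with the mature arms printed above in capitals, show how the guide lies on the 3′ side of each.
Mir221: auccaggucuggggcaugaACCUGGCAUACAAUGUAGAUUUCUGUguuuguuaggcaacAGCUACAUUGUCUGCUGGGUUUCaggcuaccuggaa
Mir222: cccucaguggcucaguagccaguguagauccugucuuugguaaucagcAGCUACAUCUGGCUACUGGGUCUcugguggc

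For context on what the shared seed can pair with, the 3′ untranslated regions of genes known or proposed as targets were searched for its complement, ATGTAGC, on the transcript strand, using the longest such region of each gene in GENCODE vM1. Over all 19856 genes with such a region, 8.20% held this match and 2.90% the longer match ATGTAGCA, which contains it. The searched genes were chosen as targets, so a match in them is a description. Sites are shown for Cdkn1b (p27), Cdkn1c (p57, a related inhibitor of the cell cycle), the receptor tyrosine kinase gene Kit, which held a pair of sites, and Bbc3 (the pro-apoptotic protein Puma), with the match in capitals.
Cdkn1b, bases 2357 to 2364: ctctaaaagcattggATGTAGCAttgc
Cdkn1c, bases 95 to 102: tgggacctttcgttcATGTAGCAggaa
Kit, bases 447 to 454: aatgatgggagatatATGTAGCAagac
Kit, bases 1978 to 1985: tttgtaaatattgaaATGTAGCAataa
Bbc3, bases 97 to 104: gactttttctgcaccATGTAGCAtact

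Positions count from the first base of each 3′ untranslated region. Esr1, the oestrogen receptor gene, also held the longer match, and Timp3, an inhibitor of matrix-degrading proteases, held the shorter one. The letters were not found in the regions of Foxo3 and Icam1. Levels of these messenger RNAs and their proteins were not analysed here.

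Levels are given in RPM, which is how many of every 1000000 reads in a library matched the miRNA. The totals ran from 16478281 to 20169254 reads, so 1 read was worth between 0.0496 and 0.0607 RPM, and all 4 members were far above 3 reads (0.149 to 0.182 RPM), the limit that a count of 0 allows. The listed miRNAs took 79.6% ± 0.142 of the reads in Control and 72.3% ± 0.752 in TGF-b1 (mean ± SD over 3 libraries of each group). That difference enters every RPM value. The libraries were checked against markers. The mesenchymal and contractile miRNAs miR-143-3p, miR-145-5p, miR-199a-3p and miR-214-3p summed to between 2575 and 2946 RPM in Control and between 2603 and 3066 in TGF-b1. Most of the sum was miR-143-3p, with means of 2029 RPM in Control and 2052 RPM in TGF-b1. Within it the markers moved in different directions. MiR-145-5p went from a mean of 127 to 239 RPM, miR-199a-3p from 601 to 484 and miR-214-3p from 8.55 to 7.17. The endothelial markers miR-126-3p and miR-126-5p, which matter here because endothelial cells are also rich in miR-221 and miR-222, summed to between 0.113 and 0.182 RPM in Control and between 0 and 0.297 in TGF-b1, at or near the limit of a few reads. Of 4 haematopoietic markers, 2 were in the table, miR-142-5p and miR-451, and summed to at most 0.599 RPM. Epithelial markers (miR-200a-3p, miR-200b-3p, miR-200c-3p, miR-141-3p and miR-429-3p) summed to between 22.2 and 25.4 RPM in Control and between 1.67 and 2.53 in TGF-b1. MiR-206-3p, a miRNA of skeletal muscle, averaged 3502 ± 114 RPM over the Control libraries and 3363 ± 90.1 RPM over the TGF-b1 libraries (± SD), while the other muscle markers, miR-1a-3p and miR-133a-3p, had Control means of 9.99 and 0.0807 RPM. The hepatocyte marker miR-122-5p went from 26.1 to 13.5 RPM and the neuronal marker miR-124-3p from 1.38 to 0.694. The part of these markers in the results was not tested. In such bulk libraries, fewer cells of a type and less RNA per cell cannot be told apart.

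The guide miR-222-3p was the most abundant member and fell after TGF-β1. It had 11379, 12716 and 12216 RPM in Control replicates 1 to 3, and 9379, 8461 and 9374 RPM in TGF-b1 replicates 1 to 3. Each TGF-b1 value was under the lowest Control value. The means were 12104 ± 675 and 9071 ± 529 RPM (SD, n = 3 each), so the level fell by 25.1%, or by 0.42 ± 0.06 (SE) on the log2(RPM + 1) scale, with a limma adjusted p of 0.00139 over the 408 miRNAs tested. The 95% interval of the log2 change ran from -0.56 to -0.27. The call depended on the scaling. The log2 change was -0.20 (limma adjusted p = 0.0628) with TMM scaling over all rows and -0.21 (limma adjusted p = 0.0948) with median-of-ratios scaling. With upper-quartile scaling it was -0.10 (limma adjusted p = 0.692), so none of these passed. It passed with the summed rows as the base, at -0.28 (limma adjusted p = 0.0113). With TMM over the tested rows it also passed, at -0.26 (limma adjusted p = 0.0308). By edgeR with TMM the change was -0.27 (adjusted p = 0.0285), which passed, and by DESeq2 -0.20 (adjusted p = 0.258), which did not.

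The guide miR-221-3p, with the same seed, moved less. It had 5085, 5262 and 5044 RPM in Control replicates 1 to 3, and 4739, 4717 and 4829 RPM in TGF-b1 replicates 1 to 3. The groups did not overlap but lay close together, with 5044 RPM in the lowest Control and 4829 RPM in the highest TGF-b1 library. The means were 5130 ± 116 and 4762 ± 59.2 RPM (SD, n = 3 each), a ratio of 0.928. The log2 change of -0.11 ± 0.05 (SE) did not pass the threshold (limma adjusted p = 0.103), with a 95% interval from -0.22 to 0.0049. Its sign depended on the scaling, since the change was 0.10 with TMM over all rows, 0.10 with median of ratios, 0.032 with the sum of the rows and 0.21 with upper quartile, with limma adjusted p-values of 0.256 to 0.633.

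**Figure D1:**
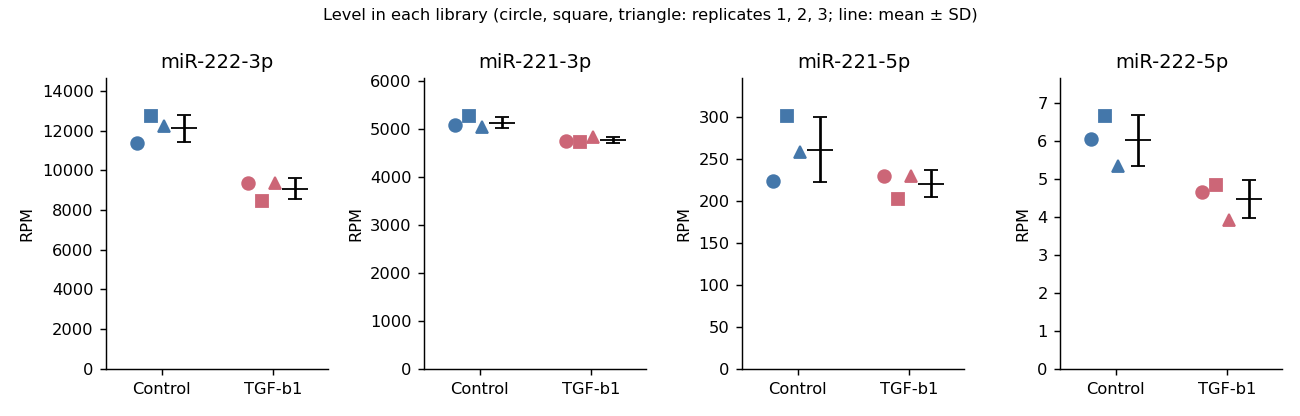
Level of the 4 members in each library, in RPM on linear axes that start at 0, with the replicates as symbols and the mean ± SD (n = 3) as a line beside them. The groups are separate for miR-222-3p, miR-221-3p and miR-222-5p, and overlap for miR-221-5p, whose Control replicate 1 lies at 224 RPM, below 2 of the TGF-b1 libraries.

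The passenger arms were far less abundant. MiR-221-5p had 224, 300.3 and 258 RPM in Control replicates 1 to 3, and 230, 202 and 229 RPM in TGF-b1 replicates 1 to 3. Control replicate 2 was the highest library and Control replicate 1 fell among the TGF-b1 libraries, so the groups overlapped. The means were 261 ± 38.4 and 220 ± 16 RPM (SD, n = 3 each), and the log2 change of -0.24 ± 0.13 (SE) did not pass (limma adjusted p = 0.160, 95% interval -0.53 to 0.056). It was -0.026 with TMM over all rows, -0.028 with median of ratios, -0.098 with the sum of the rows and 0.078 with upper quartile, and passed under none of these.

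MiR-222-5p, the passenger of the other hairpin, was the rarest member, with 67 to 111 reads in a library. It had 6.07, 6.65 and 5.33 RPM in Control replicates 1 to 3, and 4.66, 4.86 and 3.92 RPM in TGF-b1 replicates 1 to 3. Here too no TGF-b1 value reached the lowest Control value. The means were 6.02 ± 0.662 and 4.48 ± 0.493 RPM (SD, n = 3 each), a ratio of 0.744, close to the 0.749 of its guide. The log2 change of -0.36 ± 0.14 (SE) missed the threshold, with a limma adjusted p of 0.0733 and an unadjusted p of 0.0391. On the log2(RPM + 1) scale the change of such a low miRNA is understated, and the log2 ratio of its means was -0.43. With other scalings the change was -0.18 (TMM over all rows, limma adjusted p = 0.343), -0.18 (median of ratios, 0.366), -0.24 (sum of the rows, 0.207) and -0.091 (upper quartile, 0.742).

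The spread between libraries differed among the arms. The coefficient of variation of miR-222-5p was 11% in both groups, against 9.92% and 11% from counting alone, where counting takes each read as an independent molecule and 3 libraries give only a rough estimate of the spread. For miR-222-3p it was 5.58% in Control and 5.83% in TGF-b1, where counting alone gives 0.221% and 0.245%. For miR-221-3p it was 2.26% and 1.24%, the lowest of the members in each group, and for miR-221-5p 14.7% and 7.29%, against 1.5% and 1.57% from counting.

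At an adjusted p under 0.05 at any fold, 1 of the 4 members, miR-222-3p, was lower, beside 31.9% of all 408 tested miRNAs. In RPM, on library totals, all TGF-b1 libraries were below all Control libraries in 3 of the 4, as was the case for 36.0% of the tested miRNAs. This separation was not counted under other scalings. With TMM over all rows the log2 change of miR-221-3p was 0.10, so its separation does not hold there. An absolute log2 change above 1 with an adjusted p under 0.05 was reached by 12.3% of the tested miRNAs, while the members' log2 changes ran from -0.42 to -0.11. Over all tested miRNAs the median change was -0.17 on the scale of library totals. Relative to that median, the change was -0.24 for miR-222-3p, -0.18 for miR-222-5p, -0.062 for miR-221-5p and 0.067 for miR-221-3p. Of the calls at any fold, 64.7% were lower in TGF-b1 with library totals, against 49.0% with TMM over all rows, 49.7% with median of ratios, 55.3% with the sum of the rows, 43.5% with upper quartile and 55.9% with TMM over the tested rows.

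**Figure D2:**
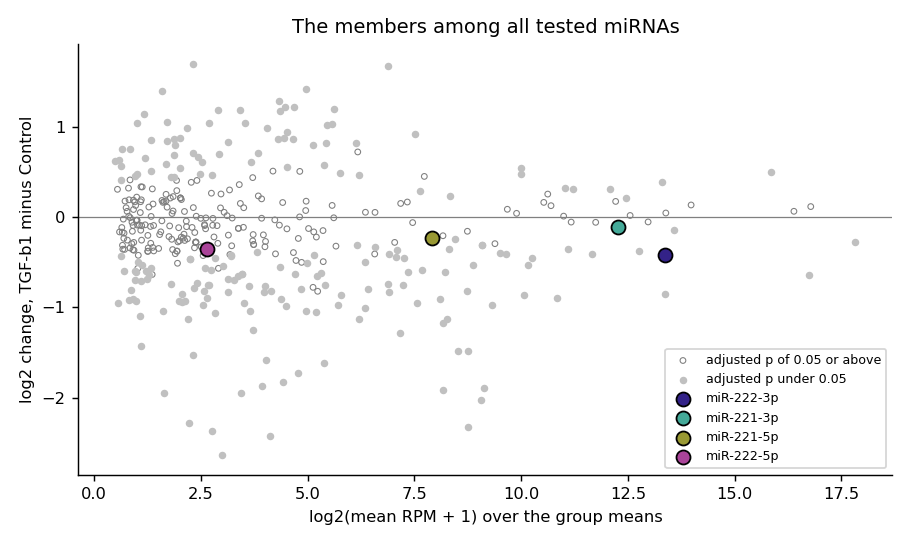
Log2 change after TGF-β1 (TGF-b1 minus Control, vertical) against log2(mean RPM + 1) (horizontal) for the 408 tested miRNAs, filled where the limma adjusted p was under 0.05, with the 4 members in colour. The members lie between -0.42 and -0.11, inside the cloud, and miR-222-3p is the one past the adjusted threshold.

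**Figure D3:**
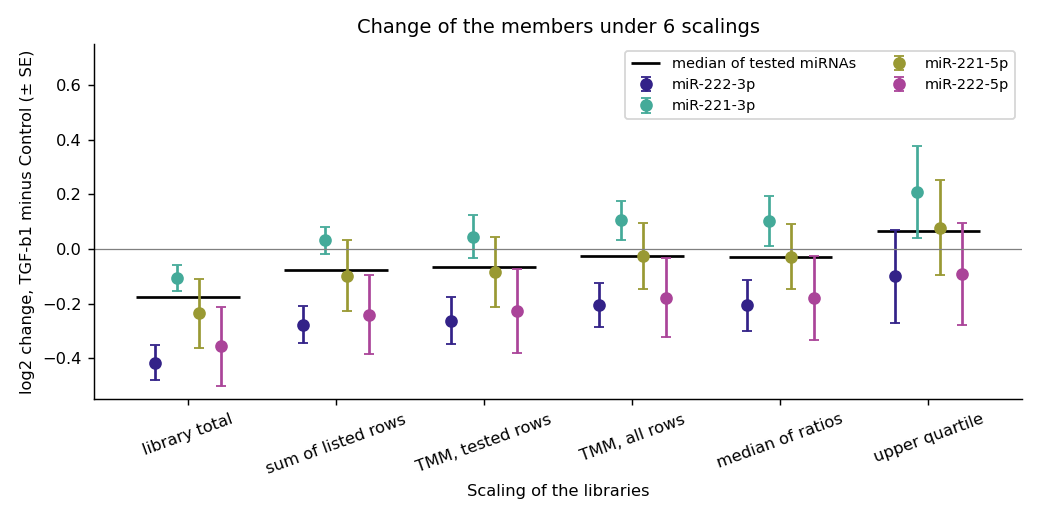
Log2 change ± SE of each member under 6 scalings of the libraries, with the median of the 408 tested miRNAs as a black line. MiR-222-3p stays below that median under each scaling and miR-221-3p above it, from -0.11 with library totals to 0.21 with upper quartile.

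The ratio of the guides within a library does not depend on the library total. MiR-222-3p exceeded miR-221-3p 2.24, 2.42 and 2.42 times in Control replicates 1 to 3, and 1.98, 1.79 and 1.94 times in TGF-b1 replicates 1 to 3. The ratio was lower in every TGF-b1 library than in every Control library, with means of 2.36 ± 0.105 and 1.90 ± 0.0980 (SD, n = 3 each). The difference was -0.31 on the log2 scale, and the two-sided exact permutation test gave p = 0.1, below which 3 against 3 libraries cannot go. Of the reads of both guides, miR-222-3p took between 69.1% (95% Wilson interval 68.9 to 69.3) and 70.8% (70.6 to 70.9) in Control, and between 64.2% (64.0 to 64.4) and 66.4% (66.3 to 66.6) in TGF-b1. As PCR copies of one molecule are counted more than once, the intervals hold for counting error alone. The passengers did not show such a separation: miR-221-5p exceeded miR-222-5p by 36.9 to 48.4 times in Control and by 41.5 to 58.4 times in TGF-b1, which overlap. Taken as miR-221 over miR-222, the log2 difference was 0.12 for the passengers, in the same direction as for the guides. The passenger ratio rests on 67 to 111 reads of miR-222-5p a library, so the overlap cannot show that the passengers differ from the guides.

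The balance of the arms did not differ beyond the replicate spread in either hairpin. In miR-221 the 3p arm exceeded the 5p arm 22.7, 17.5 and 19.5 times in Control replicates 1 to 3, and 20.6, 23.4 and 21.1 times in TGF-b1 replicates 1 to 3. The ratios overlapped, and the log2 change of the arm ratio was 0.13 ± 0.21 (SE, limma adjusted p = 0.694, 95% interval -0.33 to 0.59). In miR-222 the guide dominated far more, by 1875, 1911 and 2290 times in Control and 2012, 1742 and 2391 times in TGF-b1. The groups overlapped again, and the log2 change was -0.059 ± 0.22 (SE, limma adjusted p = 0.870, 95% interval -0.52 to 0.41). The unadjusted p-values were 0.553 and 0.788. With a pseudocount of 10 the change for miR-222 was -0.27 (limma adjusted p = 0.0696, unadjusted 0.0298), and with 0.1 it was 0.0020. Of the 84 hairpins whose arms each averaged 1 RPM or more, 26.2% had an arm ratio with an adjusted p under 0.05. The 3p arm made up 94.6% to 95.9% of the reads of miR-221 and 99.94% to 99.96% of those of miR-222 over the 6 libraries.

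**Figure D4:**
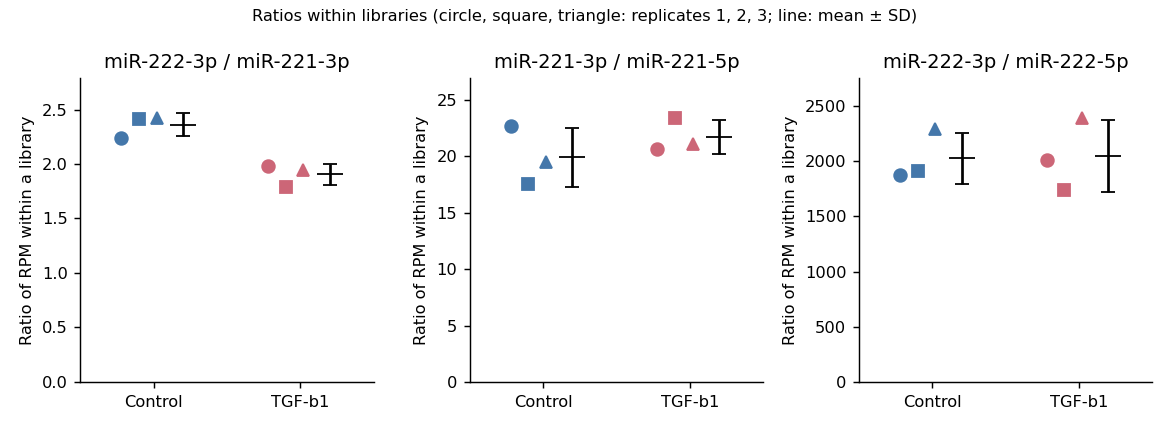
Ratios of RPM within each library for the guides and for the arms of each hairpin, on linear axes that start at 0, with the replicates as symbols and the mean ± SD (n = 3) as a line. The ratio of the guides is separate between the groups (2.24 to 2.42 in Control, 1.79 to 1.98 in TGF-b1), while the arm ratios overlap.

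The members summed to between 16694 and 18285 RPM in Control and between 13385 and 14436 RPM in TGF-b1, or 1.75% ± 0.0795 and 1.41% ± 0.0585 of the library total. As a share of the listed miRNAs alone their share was 2.20% ± 0.104 for Control libraries and 1.95% ± 0.0986 for TGF-b1 libraries (± SD). The groups did not overlap on either base, since the lowest Control share of the listed reads was 2.09% and the highest TGF-b1 share 2.01%. The sum is mostly the level of miR-222-3p, which did not pass with TMM over all rows, median of ratios or upper quartile. The sum was not compared under those scalings, so its separation is shown for the library total and the listed reads only.

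In the order of mean RPM over the 6 libraries, miR-222-3p was 10th with 10587 RPM, between let-7i-5p with 10604 and miR-320-3p with 10058, and within libraries it ranked between 8 and 10. That order pools the groups, and the neighbours moved apart within them. MiR-320-3p ran from 8058 to 9292 RPM in Control, below every Control value of miR-222-3p, and from 11170 to 11575 RPM in TGF-b1, above every TGF-b1 value of it. Let-7i-5p overlapped miR-222-3p in both groups, with 12511 to 15690 RPM in Control and 6737 to 9153 RPM in TGF-b1. MiR-221-3p was 16th with a mean of 4946 RPM, between miR-29a-3p with 5599 and miR-423-5p with 4747, and it ranked between 15 and 18. MiR-29a-3p overlapped it in Control, with 4914 to 5467 RPM, and lay above it in TGF-b1, with 5620 to 6407 RPM, while miR-423-5p overlapped it in both groups. MiR-221-5p was 60th, between miR-30a-3p and miR-22-3p, which were separate from it in Control, the former above and the latter below, and overlapped it in TGF-b1. MiR-222-5p was 221st, between miR-361-5p and miR-421-3p, and overlapped both in each group. Levels of different miRNAs in small RNA libraries also carry the bias of ligation, which was not measured here.

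Over the 6 libraries the guides followed each other, with a Pearson r of 0.954 on log2(RPM + 1), and miR-221-5p and miR-222-5p had the lowest r among the members, 0.586. These r values pool the groups, so they also carry the difference between Control and TGF-b1. The miRNAs whose pattern was most like miR-222-3p were miR-30a-5p (r = 0.993), miR-503-3p (0.992) and miR-16-1-3p (0.990). Those most like miR-221-3p were miR-423-3p (0.993), miR-3095-3p (0.983) and miR-466c-5p (0.980). Each is among the 3 highest of 407 correlations with its guide, over 6 libraries that share their totals and their groups. All 6 miRNAs were lower in every TGF-b1 library than in every Control library. MiR-30a-5p had a log2 change close to that of miR-222-3p, -0.41 ± 0.08 (SE, limma adjusted p = 0.00510), from 3682 to 2763 RPM.

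Other miRNAs linked to proliferation were taken from a pair of lists. The 11 miRNAs known for promoting it were members of the miR-17-92 and miR-106b-25 clusters with miR-21-5p and miR-31-5p. Of these, 2 were lower and 0 higher after TGF-β1 at a limma adjusted p under 0.05. Of all tested miRNAs 31.9% were lower and 17.4% higher at the adjusted threshold. MiR-25-3p fell by 0.86 ± 0.10 (SE, limma adjusted p = 0.000522) and miR-18a-5p by 0.57 ± 0.13 on the log2 scale (SE, limma adjusted p = 0.00892), and miR-106b-5p had a change of -0.32 (limma adjusted p = 0.0517). With TMM over all rows 1 was lower, miR-25-3p, and 2 were higher, miR-21-5p and miR-31-5p. Of all 408 tested miRNAs 94 were lower and 98 higher there. With median of ratios 1 was lower and 3 were higher, beside 92 and 93 of all 408. MiR-21-5p and miR-31-5p were also the 2 higher ones by edgeR with TMM and by DESeq2, where 2 and 1 were lower. Of all 408, edgeR with TMM called 101 lower and 85 higher, and DESeq2 72 lower and 75 higher. The median change of the list was -0.21, near the -0.17 of all tested miRNAs. With upper quartile the list median was 0.027, beside 0.067 for all tested miRNAs.

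Of 12 miRNAs known for restraining proliferation, 10 were tested, since miR-195-5p and miR-497-5p had too few reads. Among them 5 were lower and 2 higher, with a median of -0.48 against -0.17 for all tested miRNAs, of which 31.9% were lower and 17.4% higher. The lower ones were miR-503-5p, miR-322-5p, miR-15a-5p, miR-15b-5p and miR-16-5p, which belong to the miR-15/16 family and hold back cyclins and their kinases. MiR-503-5p went from 717.5 to 142.9 RPM, miR-322-5p from 41.1 to 11.7 and miR-15a-5p from 29.2 to 14. They fell by 2.32 ± 0.09, 1.73 ± 0.17 and 0.99 ± 0.18 (SE) on the log2 scale, with limma adjusted p-values of 2.67e-06, 0.000206 and 0.00348. The higher ones were miR-145-5p, which favours the contractile state of smooth muscle, and miR-34c-5p of the p53-responsive miR-34 family, with changes of 0.92 ± 0.16 and 0.31 ± 0.06 (SE, limma adjusted p = 0.00235 and 0.00502). The counts were the same under the other scalings except upper quartile, where 4 were lower. Of all 408 tested miRNAs, 73 were lower and 95 higher with upper quartile. With TMM over all rows or the tested rows, median of ratios and the sum of the rows, 92 to 105 were lower and 83 to 98 higher. Beside them, the changes of the guides were -0.11 for miR-221-3p and -0.42 for miR-222-3p, and the differences between these miRNAs were not tested.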

How the data were processed

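Per the methods of the study, reads were cleaned of adaptors, contaminants, short and poor-quality sequences and then matched with Bowtie to the known mouse miRNAs of miRBase. How reads matching several miRNAs were counted is not given in the sources used here. The authors deposited 1 table in a unit they call TPM, which is RPM, reads per 1000000 reads of the library total. Library totals were recovered as the integers that turn the values into whole reads, and 100% of values were whole within 0.002. Levels were compared with limma 3.58.1 in R 4.3.3 on log2(RPM + 1) with a trended prior and group as the only term, over the 408 of 778 miRNAs that passed filterByExpr of edgeR 4.0.16 (minimum count 10), with Benjamini-Hochberg adjustment. Arm ratios were fitted with limma over 84 hairpins. Because the table is normalized, edgeR and DESeq2 1.42.0 on the recovered reads were alternatives; edgeR with TMM called 186 miRNAs and DESeq2 147 at any fold. Exact permutation tests used scipy 1.17.1. The fits were tested on simulated reads. The members and lists were chosen with earlier results of these data known. Named miRNAs are the members, those sharing a seed, the 3 most alike each guide, neighbours in abundance and up to 3 examples of a list by size of change; the higher or lower miRNAs of a list beyond these, and the markers, were named after their values were seen. Scaling by the library total differs from other scalings by an offset per library, which can turn the sign of small changes. Sequences are from RefSeq (GRCm38.p6) and coordinates from NCBIM37; none were converted. One of the target genes chosen for the seed search is not reported here.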

Additional observations from a re-analysis of the deposited data

How the results depend on the processing

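TMM on the tested rows and edgeR with library totals were chosen after seeing the data. MiR-222-3p kept its direction under every alternative but no longer passed with TMM over all rows (-0.20), median of ratios (-0.21), upper quartile (-0.10) or DESeq2 (-0.20, adjusted p = 0.258). MiR-221-3p changed sign with TMM over all rows (0.10), median of ratios (0.10), upper quartile (0.21), the sum of the rows (0.032), TMM on the tested rows (0.045), edgeR with TMM (0.044) and DESeq2 (0.11), and passed in no fit. MiR-221-5p changed sign with upper quartile (0.078). The arm ratio of miR-222 was 0.0020 with a pseudocount of 0.1 and -0.27 with 10 (adjusted p = 0.0696). MiR-222-5p kept its direction and passed in no fit, and with all 6 libraries lay between -0.091 with upper quartile and -0.42 with edgeR and library totals, with -0.20 by DESeq2 (adjusted p = 0.625). The cause was not tested.

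With 1 library left out in turn, the changes were -0.46 to -0.37 for miR-222-3p, which passed in all 6 fits, -0.12 to -0.089 for miR-221-3p, -0.34 to -0.13 for miR-221-5p, -0.43 to -0.28 for miR-222-5p, 0.041 to 0.23 for the arm ratio of miR-221, -0.16 to 0.040 for that of miR-222, 0.27 to 0.35 for the log2 ratio of miR-221-3p to miR-222-3p, and 162 to 208 miRNAs called at any fold.

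Replicate numbers gave no pairing of libraries: same-numbered deviations correlated at -0.096, -0.24 and -0.39, and 0 of 6 libraries correlated best with its own number. With the replicate block 176 miRNAs were called in place of 201, miR-222-3p had an adjusted p of 0.00584, the block changed no call of a member, and the ratio of the guides had an exact sign-flip permutation p of 0.25, the smallest possible. At an absolute log2 change above 1, 50 miRNAs were called, against 17 with a pseudocount of 10 and 86 with 0.1, with edgeR and TMM or with edgeR and library totals, and 77 with DESeq2. MiR-222-5p had 67 to 111 reads a library.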
